A study of Homo sapiens with 18 samples.

Results

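The nuclear-encoded subunits of the mitochondrial respiratory chain and ATP synthase were followed in OCI-AML1 cells, an established line grown from human acute myeloid leukaemia. They were taken by symbol: protein-coding genes beginning NDUFA, NDUFB, NDUFC, NDUFS or NDUFV with a number (complex I), SDHA to SDHD (complex II), UQCR and CYC1 (complex III), COX4 to COX8 (complex IV), and ATP5F1, ATP5M and ATP5P (complex V), without the NDUFAF assembly factors. This gave 89 genes of the 60609 gene identifiers in the count files, of which 39 belonged to complex I, 4 to complex II, 10 to complex III, 17 to complex IV and 19 to complex V. A filter on low counts passed 82 of them among 20920 genes tested. NDUFA4 was kept with complex I by its symbol, although it is known as a subunit of complex IV.

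Complexes I and II feed electrons from NADH and succinate into ubiquinone, complex III passes them to cytochrome c, and complex IV gives them to oxygen. Complexes I, III and IV pump protons across the inner mitochondrial membrane, and ATP synthase, complex V, uses that gradient to make ATP. Most subunits are encoded in the nucleus and imported, while a small core is encoded by mitochondrial DNA. Complex II is entirely nuclear-encoded and is also an enzyme of the tricarboxylic acid cycle. Myeloid leukaemia cells are known to lean on oxidative phosphorylation, and venetoclax, a BCL2 inhibitor, acts at the mitochondrion.

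The series concerns Mediator kinase inhibition and venetoclax sensitivity, and polyadenylated RNA was sequenced after culture with DMSO, AML874 or SEL120-34A for 8 h or 24 h. The 6 groups were DMSO at 8 h, AML874 at 8 h, SEL120-34A at 8 h, DMSO at 24 h, AML874 at 24 h and SEL120-34A at 24 h, with 3 libraries each. All were labelled wild type (WT) with blood as the tissue, and none of the groups was labelled with venetoclax. SEL120-34A inhibits CDK8 and CDK19, the kinases of Mediator, AML874 is a code name, and the doses are not given in the sources used here. Nothing in the labels says that the 3 libraries of a group came from separate cultures, so the p-values rest on how far these libraries differ from each other, which may be technical only.

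Each library held between 98975944 and 142496541 reads counted in genes. A count of 0 allows up to 3 counts, or 0.0211 to 0.0303 CPM (the count of a gene scaled to a fixed library size), for counting error only. The 7 myeloid markers had medians over libraries from 2.91 to 279 CPM, T cell markers stayed at or below 0.0492 CPM, and 4 of 5 erythroid markers were at 0 in every library. After group means were removed, 35.1% of the variance over 10513 genes lay on 1 axis, on which DMSO at 8 h library 3, SEL120-34A at 8 h library 2, AML874 at 24 h library 1 and SEL120-34A at 24 h library 2 were highest. Results that move by over 1.5 times without these 4 libraries are given both ways, here or with the other alternatives.

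The subunits differed widely in level, and genes for tissue-restricted isoforms were at or near 0 counts. On the TPM scale, which accounts for transcript length, the median member stood at 164 TPM in complex I, 146 in complex II, 224 in complex III, 515 in complex IV and 317 in complex V. The highest member was at 962 TPM in complex V, ATP5F1B, the catalytic beta subunit of ATP synthase, at 809 TPM in complex IV, COX4I1, a core-binding subunit of cytochrome oxidase, and at 646 TPM in complex III, UQCRH, the hinge protein of complex III. Complex II spanned the narrowest range, from 136 TPM for SDHA, the flavoprotein, to 222 TPM for SDHC, a membrane anchor. The 7 members that failed the filter were COX4I2, COX6A2, COX7A1 and NDUFC2-KCTD14, each with 0 counts in all libraries, and COX7B2, COX6B2 and COX8C, with 2, 26 and 41 counts over all 18 libraries. NDUFC2-KCTD14 was at 2.25 to 5.62 TPM despite its 0 counts, while COX4I2, COX6A2 and COX7A1 were at 0 TPM too. COX4I2, COX6A2 and COX7A1 are isoforms known from lung, heart or skeletal muscle. At the low end among tested members were NDUFA4L2, a hypoxia-inducible paralogue of NDUFA4, at 2.37 TPM, and UQCRHL, a near-identical copy of UQCRH, at 6.82 TPM, whose reads cannot be told apart with certainty from those of UQCRH.

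**Figure D1:**
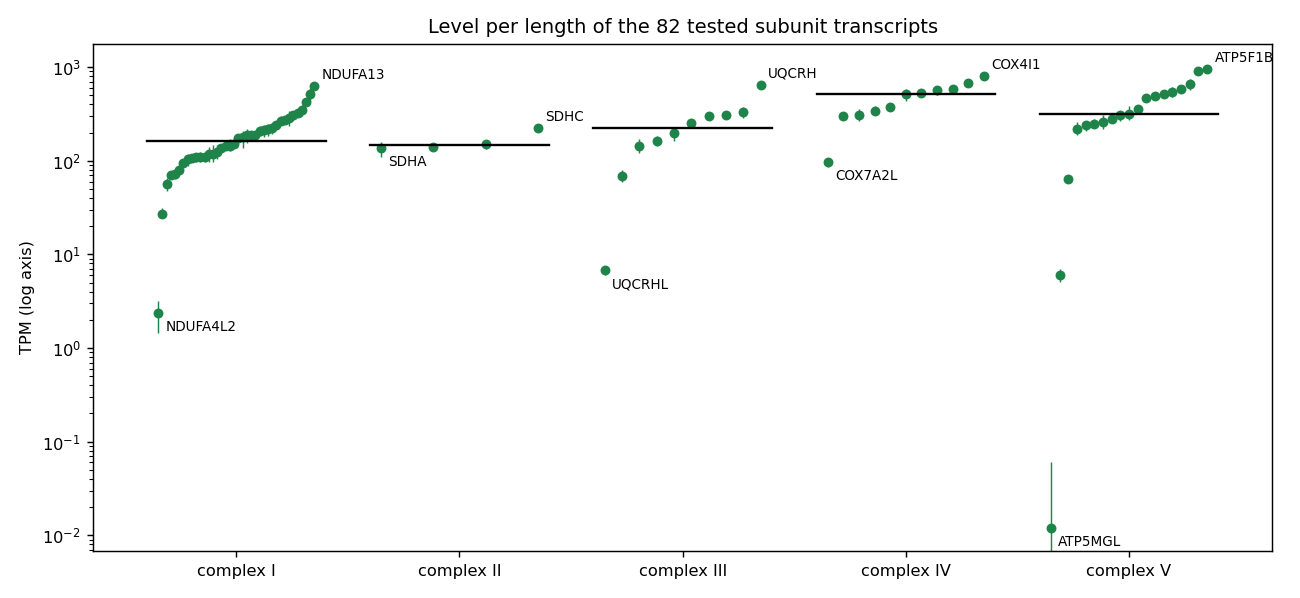
Each point is the mean TPM over 18 libraries (log axis) of 1 of the 82 tested members, arranged by complex, with a vertical line from the lowest to the highest library and a horizontal bar at the median of the complex. Complex IV has the highest median, 515 TPM, and ATP5MGL lies apart at 0.012 TPM.

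The deposited counts exist in 2 forms, and for 16 tested members they disagree. The main values are STAR counts, which keep reads assigned to a single gene, and RSEM expected counts, which share ambiguous reads out, were at least 1.5 times as high for these 16. The ratio was 100 for NDUFV2, a core subunit of complex I, 99.8 for NDUFA13, 50.5 for NDUFA7, 16.1 for SDHA and 15.3 for NDUFB8. Between 8.2% and 88.3% of the exon bases of the other 15 members were shared on the same strand with another annotated gene, against 0.0% for SDHA, which is known to have pseudogene copies. For the remaining 66 members the 2 counts never gave opposite calls. Where a result turns on one of the 16, the RSEM value is given beside it, and what causes the disagreement was not tested.

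**Figure D2:**
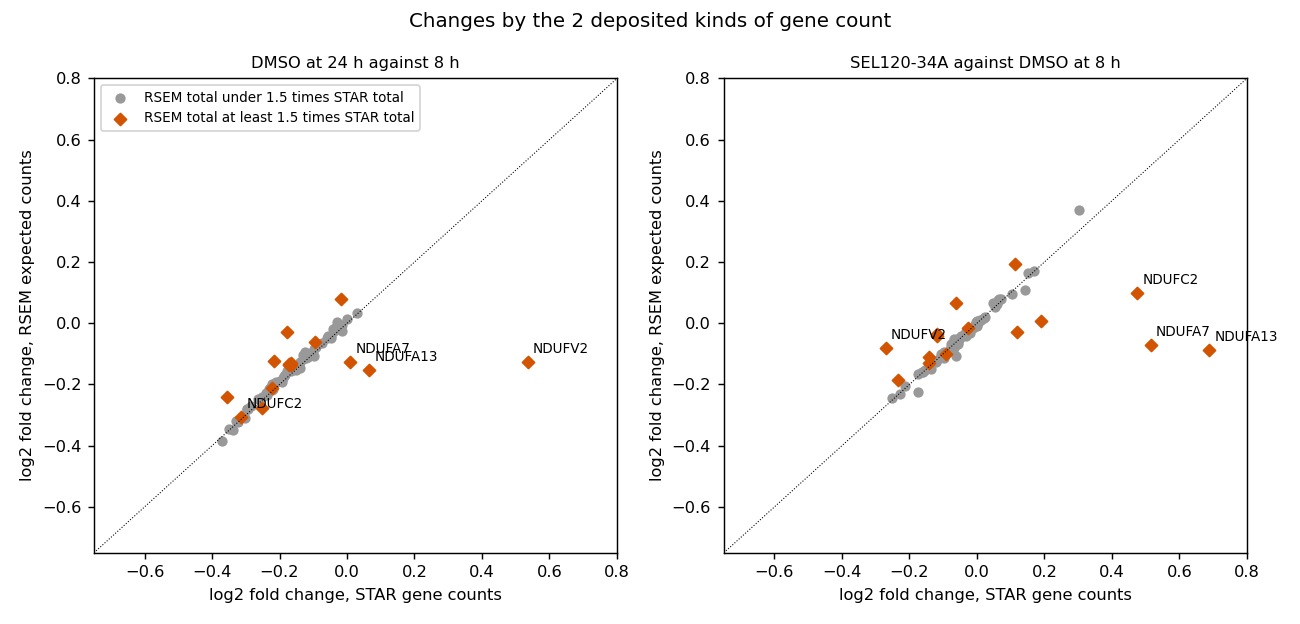
Log2 fold changes from STAR gene counts (horizontal) and from RSEM expected counts (vertical) for DMSO at 24 h against 8 h (left) and SEL120-34A against DMSO at 8 h (right), 1 point a member, without ATP5MF-PTCD1 and ATP5MGL. Members with alike counts (grey circles) lie along the diagonal, while NDUFV2, NDUFA7, NDUFA13 and NDUFC2 (among the orange diamonds) lie off it in at least 1 panel.

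Promoter sequences were at hand for 69 of the 89 members in RefSeq (GRCh38.p14), each from 250 bases before to 50 bases after the start. They were searched on both strands for the letters bound by 3 regulators known from respiratory genes. The NRF1 palindrome, the first run of capitals in the SDHD window below, occurred in 4 of the 69 (5.8%, against 1.36% of 27305 promoters). The ETS letters CCGGAAGT, the core of sites of GABP, occurred in 10 (14.5% against 4.44%), and the YY1 letters AAGATGGCG in 8 (11.6% against 1.85%). A match describes letters and is not a bound site. Below are the 150 bases before the start of 4 members, 5′ to 3′, with matches in capitals. NDUFV1, COX8A and UQCRC2 are shown because the results below turn on them, and SDHD because its window held both NRF1 and ETS letters.
NDUFV1, chr11:67606786-67606935, plus strand: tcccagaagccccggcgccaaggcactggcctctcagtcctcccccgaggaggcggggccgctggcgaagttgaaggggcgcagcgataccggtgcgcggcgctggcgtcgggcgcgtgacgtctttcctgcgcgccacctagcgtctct
COX8A, chr11:63974470-63974619, plus strand: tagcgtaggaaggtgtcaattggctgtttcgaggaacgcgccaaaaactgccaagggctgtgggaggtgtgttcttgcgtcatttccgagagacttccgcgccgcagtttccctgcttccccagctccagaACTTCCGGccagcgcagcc
UQCRC2, chr16:21953211-21953360, plus strand: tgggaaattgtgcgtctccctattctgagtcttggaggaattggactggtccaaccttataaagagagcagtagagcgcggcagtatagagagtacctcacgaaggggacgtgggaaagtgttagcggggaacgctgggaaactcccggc
SDHD, chr11:112086723-112086872, plus strand: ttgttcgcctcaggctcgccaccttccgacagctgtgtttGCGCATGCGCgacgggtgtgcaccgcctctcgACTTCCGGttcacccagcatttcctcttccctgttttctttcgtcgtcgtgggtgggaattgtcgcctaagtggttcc
COX8A carried the ETS letters close to its start, and the windows of NDUFV1 and UQCRC2 held none of the 3.

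The first comparison followed the solvent control over time. Between 8 h and 24 h in DMSO, 60 of the 82 tested members fell and 1 rose, against a background of 22.7% of all tested genes lower and 19.8% higher (edgeR quasi-likelihood test, Benjamini-Hochberg adjusted p under 0.05). The median log2 change of the members was -0.17, while that of all genes was 0.01. The fall was small for each gene and spread over the complexes: 28 of 38 members of complex I, 2 of 4 of complex II, 6 of 10 of complex III, 11 of 11 of complex IV and 13 of 19 of complex V. Summed over all 89 members, the level was 9921, 9997 and 9700 CPM in the 3 libraries at 8 h and 9175, 9073 and 8943 CPM at 24 h, so the 2 times did not overlap. Leaving out each library in turn gave 52 to 63 lower members, and RSEM counts gave 61.

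Within ATP synthase the fall was uneven. ATP5MC1, 1 of 3 genes for the proton-carrying c-ring (ENSG00000159199.14, chr17:48892765-48895871 in GRCh38), was at 103, 109 and 104 CPM at 8 h and at 79.7, 84.0 and 80.8 CPM at 24 h. The libraries of the 2 times were far apart, and the log2 change was -0.37 ± 0.05 (SE, edgeR adjusted p = 2.54e-06), the largest fall among the members past the threshold. ATP5MC3, which encodes the same mature c subunit, fell by 0.22 ± 0.03 on the log2 scale, whereas ATP5MC2 had a log2 change of -0.04 (95% interval -0.09 to 0.01). With STAR counts all 5 accessory membrane subunits and all 4 peripheral stalk subunits fell, with medians of -0.24 and -0.19. On the TPM scale ATP5PO of the stalk did not fall, at 341 to 346 at 8 h and 344 to 356 at 24 h. ATP5MG of the membrane part fell by 0.36 ± 0.04 with STAR counts and by 0.24 with RSEM counts. Of the 5 subunits of the F1 head, 2 fell. ATP5F1A, the alpha subunit, was at 719, 738 and 711 CPM at 8 h and 746, 744 and 722 CPM at 24 h, overlapping ranges with a log2 difference of 0.03 (95% interval -0.02 to 0.08), and ATP5F1B differed by -0.04 (-0.09 to 0.01).

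In complex I, 25 of 31 accessory subunits fell and 3 of the 7 core subunits, which hold the flavin and iron-sulphur centres. NDUFV1, the flavin- and NADH-binding core subunit (ENSG00000167792.13, chr11:67605653-67612554), was at 194, 198 and 194 CPM at 8 h and 169, 168 and 165 CPM at 24 h. All 24 h libraries lay below all 8 h libraries, with a log2 change of -0.22 ± 0.03 (edgeR adjusted p = 4.81e-09). NDUFS1, the largest iron-sulphur subunit, differed by -0.01 (95% interval -0.06 to 0.03). NDUFA4, the subunit associated with cytochrome oxidase, fell by 0.30 ± 0.03 on the log2 scale. The 1 member called higher was NDUFV2, at 0.843, 0.852 and 0.876 CPM at 8 h and 0.907, 1.32 and 1.51 CPM at 24 h. Its log2 change of 0.54 ± 0.17 had the opposite sign with RSEM counts, -0.13 (edgeR adjusted p = 0.00072), and without DMSO at 24 h library 3 no member was called higher.

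In complexes II and III the members differed from each other. SDHB, the iron-sulphur subunit of complex II, went from 117, 118 and 114 CPM to 99.7, 101 and 97.3 CPM, a log2 change of -0.23 ± 0.03 with no overlap. SDHC differed by -0.05 (95% interval -0.10 to 0.00). The Rieske iron-sulphur protein UQCRFS1 fell by 0.22 ± 0.03 on the log2 scale and cytochrome c1, CYC1, by 0.09 ± 0.03. The core proteins UQCRC1 and UQCRC2, which face the matrix, differed by -0.06 (-0.11 to -0.01) and -0.03 (-0.08 to 0.02) and did not pass the threshold. COX4I1 had the smallest called change of complex IV, -0.07 ± 0.02. For COX4I1 this call was lost with library totals alone (-0.03), with DESeq2 (-0.06), without DMSO at 8 h library 1 or 2 (-0.06 and -0.05), without DMSO at 24 h library 2 or 3 (-0.06 and -0.05) and without 4 single libraries of treated cells (-0.06). The fall of CYC1 was lost with library totals alone (-0.05) and without DMSO at 8 h library 2 (-0.06) or DMSO at 24 h library 2 or 3 (-0.07 and -0.06).

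Other genes of the pathway were read from lists. Of 16 complex I assembly factors 11 fell and 1 rose, of 33 assembly factors of complexes II to V 18 fell and 2 rose, of 18 genes of the tricarboxylic acid cycle and pyruvate dehydrogenase 11 fell and 1 rose, and of 13 biogenesis regulators 10 fell and 0 rose. Among the regulators, ESRRA, a nuclear receptor of mitochondrial genes, fell by 0.33 ± 0.04. Targets of HIF, the hypoxia-inducible factor, moved the other way: 12 of 26 rose and 0 fell, and their mean level was 5.24 to 5.90 log2 CPM in the 8 h libraries and 5.96 to 6.22 in the 24 h libraries. With that level as a covariate 50 members were called lower. The part of HIF targets in the fall was not tested. At least 1 of the 3 motifs was in 13 of the 49 promoters of members that fell and in 8 of the 14 of members that were not called. By motif these were 3 and 1 for NRF1, 7 and 3 for ETS and 4 and 4 for YY1. The share of at least 1 motif among all promoters is not given here, and 14 promoters are few. The promoter of NDUFV2, called higher, held none and 5 promoters belonged to members not tested. Of 7 myeloid markers 4 fell and 2 rose between the times, and their part in the changes of the members was not tested.

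**Figure D3:**
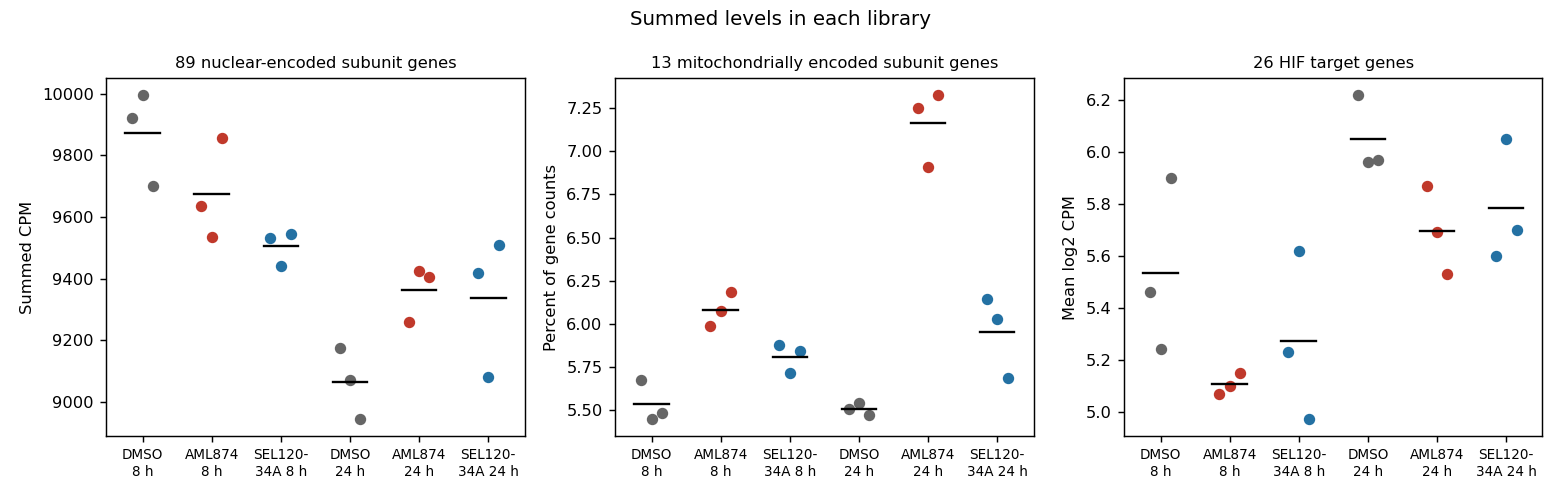
Points are the 3 libraries of each of the 6 groups and bars their means: summed CPM of the 89 members (left), percent of gene counts in the 13 mitochondrially encoded subunits (middle) and mean log2 CPM of 26 HIF targets (right), on axes that do not start at 0. The members are lowest with DMSO at 24 h, and the mitochondrially encoded share is highest with AML874 at 24 h, 6.91 to 7.33%.

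After 8 h the members moved in both directions with either compound. With AML874, 8 of 82 were higher and 22 lower than with DMSO, against 19.7% and 19.9% of all genes, and the split became 20 higher and 9 lower when counts were scaled by library totals alone. With SEL120-34A, 11 were higher and 25 lower, against 22.4% and 22.6%, and the split became 23 and 10 with library totals alone. Medians were -0.02 and -0.05 on the log2 scale, so no direction of the whole set stands at 8 h apart from the scaling. The 2 comparisons share their DMSO libraries. The count of 8 became 4 or 5 without DMSO at 8 h library 1 or 3 or without AML874 at 8 h library 2 or 3, and 5 without the 4 libraries named above. Without DMSO at 8 h library 3 the 25 lower with SEL120-34A became 38. Of its 11 higher members, 5 were among those that RSEM counts alike.

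NDUFV1 was higher with both compounds at both times. At 8 h it was at 194, 198 and 194 CPM with DMSO, 211, 218 and 226 with AML874 and 219, 213 and 218 with SEL120-34A. The log2 changes were 0.16 ± 0.02 and 0.15 ± 0.02 (edgeR adjusted p = 2.5e-06 and 5.3e-06), and every treated library lay above every DMSO library. At 24 h DMSO had 169, 168 and 165 CPM, AML874 199, 204 and 201 and SEL120-34A 197, 193 and 200. These were log2 changes of 0.27 ± 0.02 and 0.23 ± 0.02, again without overlap. NDUFS1, its neighbour in the NADH-oxidising arm, passed the threshold in none of the 4 comparisons with DMSO, with log2 changes of 0.02, -0.05, -0.01 and -0.01. On the TPM scale NDUFS1 was lower with SEL120-34A at 8 h, at 64.8 to 66.6 against 74.1 to 75.8 with DMSO. At 24 h it was at 63.2 to 69.5 TPM with AML874 and 67.6 to 73.4 with SEL120-34A, against 75.3 to 77.8 with DMSO. With AML874 at 8 h the TPM ranges overlapped.

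Complex II changed unevenly. SDHC, a haem-binding membrane anchor (ENSG00000143252.14, chr1:161314257-161375340), rose by CPM with both compounds at both times. It was at 121, 123 and 119 CPM with DMSO, 132, 130 and 130 with AML874 and 131, 137 and 133 with SEL120-34A at 8 h, and at 119, 114 and 118, then 134, 139 and 134, then 138, 137 and 139 CPM at 24 h. By CPM no treated library overlapped DMSO, with log2 changes of 0.10 ± 0.03 and 0.14 ± 0.03 at 8 h and 0.21 ± 0.03 and 0.23 ± 0.03 at 24 h. On the TPM scale SDHC at 8 h was at 214 to 220 with DMSO. It was at 219 to 225 TPM with AML874 and 217 to 227 with SEL120-34A, both overlapping DMSO. At 24 h SDHC was at 212 to 217 TPM with DMSO and 212 to 226 with AML874, which overlapped. With SEL120-34A at 24 h it was at 233 to 239 TPM, above DMSO. SDHB went the other way at 8 h, to 110, 107 and 111 CPM with AML874 and 100, 101 and 99.4 with SEL120-34A, from 117, 118 and 114. Its log2 changes were -0.09 ± 0.03 and -0.21 ± 0.03, the first of which, for SDHB, was not called with library totals alone (-0.04). SDHA rose at 24 h from 12.6, 13.2 and 12.4 CPM to 14.9, 15.9 and 17.8 with AML874 and 16.3, 14.4 and 15.0 with SEL120-34A, log2 changes of 0.35 ± 0.06 and 0.25 ± 0.06, or 0.38 and 0.34 with RSEM counts. At 8 h SDHA was not called with STAR counts (0.09 and 0.11) but was called higher with RSEM counts (0.20 and 0.19).

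COX8A, the smallest subunit of cytochrome oxidase (ENSG00000176340.4, chr11:63974607-63976543), was lower with both compounds at both times. DMSO had 63.5, 62.9 and 60.1 CPM at 8 h, AML874 53.6, 57.0 and 57.9 and SEL120-34A 56.4, 55.3 and 57.2. At 24 h DMSO had 56.5, 56.8 and 53.0 CPM, AML874 46.8, 46.2 and 50.2 and SEL120-34A 49.9, 45.1 and 47.2. All treated libraries were below the DMSO libraries of their time, with log2 changes of -0.15, -0.14, -0.22 and -0.22, each with an SE of 0.04. RSEM counts, 2.18 times as high for this gene, gave -0.16, -0.11, -0.26 and -0.22. UQCRH of complex III was also lower in the 4 comparisons, by smaller log2 changes of -0.09, -0.10, -0.09 and -0.12. UQCRH was not among the named changes tried under the alternatives. At 8 h, called falls of like size, for SDHB with AML874 and CYC1 with SEL120-34A, were lost with library totals alone.

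The F1 head of ATP synthase was lower at 8 h for some subunits. ATP5F1C, the gamma subunit of the rotor, was at 199, 199 and 197 CPM with DMSO, 184, 181 and 183 with AML874 and 181, 176 and 178 with SEL120-34A. The groups did not overlap and the log2 changes were -0.12 ± 0.02 and -0.15 ± 0.02. ATP5F1B fell by 0.08 ± 0.02 and 0.15 ± 0.02 on the log2 scale. With library totals alone the ATP5F1B change was -0.03 and not called with AML874, and -0.08 with SEL120-34A. NDUFA4L2 was at 2.13, 2.13 and 2.09 CPM with DMSO, 2.82, 2.65 and 2.78 with AML874 and 2.40 to 2.73 with SEL120-34A, higher in every treated library by 0.38 ± 0.12 and 0.30 ± 0.12. For NDUFA4L2 the second call was lost with RSEM counts (0.37), without any 1 of the 3 DMSO libraries at 8 h (0.28 to 0.30) and without SEL120-34A at 8 h library 2 or 3 (0.26). HIF targets moved with both compounds at that time, with 11 of 26 lower with AML874, 9 of 26 lower with SEL120-34A and 0 higher in either. Of 7 myeloid markers 4 were lower with AML874 and 6 with SEL120-34A, and the part of both lists in the changes of the members was not tested.

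Several of the other members named for a fall at 8 h were accessory subunits of complex I. NDUFB9, in the membrane arm, was at 154, 155 and 144 CPM with DMSO, 135, 128 and 135 with AML874 and 134, 136 and 134 with SEL120-34A. All treated libraries were below all DMSO libraries, with log2 changes of -0.19 ± 0.03 and -0.16 ± 0.03. NDUFA12, an accessory subunit of the matrix arm, went from 74.7, 72.3 and 71.7 CPM to 61.9, 63.7 and 68.0 with AML874, a log2 change of -0.18 ± 0.04. NDUFB8 was lower with both compounds, by -0.25 and -0.23 with STAR counts and -0.23 and -0.19 with RSEM counts, which were 15.3 times as high. For NDUFA11 the fall with AML874 was -0.31 with STAR counts and -0.06 with RSEM counts, not called there (edgeR adjusted p = 0.082).

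NDUFS8, a core iron-sulphur subunit of complex I, was at 68.3, 68.4 and 65.9 CPM with DMSO and 72.3, 72.4 and 75.1 with AML874, a log2 change of 0.12 ± 0.03 without overlap. With the HIF target level as a covariate the change of NDUFS8 was 0.07 and not called. NDUFA2 rose with SEL120-34A from 47.6, 48.6 and 43.7 CPM to 52.6, 51.3 and 53.5, by 0.17 ± 0.04, and by 0.11 without DMSO at 8 h library 3. NDUFA9 rose with SEL120-34A by 0.19 ± 0.06 with STAR counts, but the change was 0.01 with RSEM counts and 0.11 without DMSO at 8 h library 3, neither of which was called. NDUFA13 and NDUFA7, chosen after their values were seen, show the same split between counts, with 0.69 and 0.51 by STAR and -0.09 and -0.07 by RSEM for SEL120-34A. CYC1 moved apart between the compounds, at 197, 202 and 195 CPM with DMSO, 207, 208 and 213 with AML874 and 187, 188 and 188 with SEL120-34A. For CYC1 the log2 changes against DMSO were 0.08 and -0.08. The first was lost without DMSO at 8 h library 1 or 3 (0.06 and 0.05) or AML874 at 8 h library 2 or 3 (0.07 and 0.06), the second with library totals alone (-0.01).

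**Figure D4:**
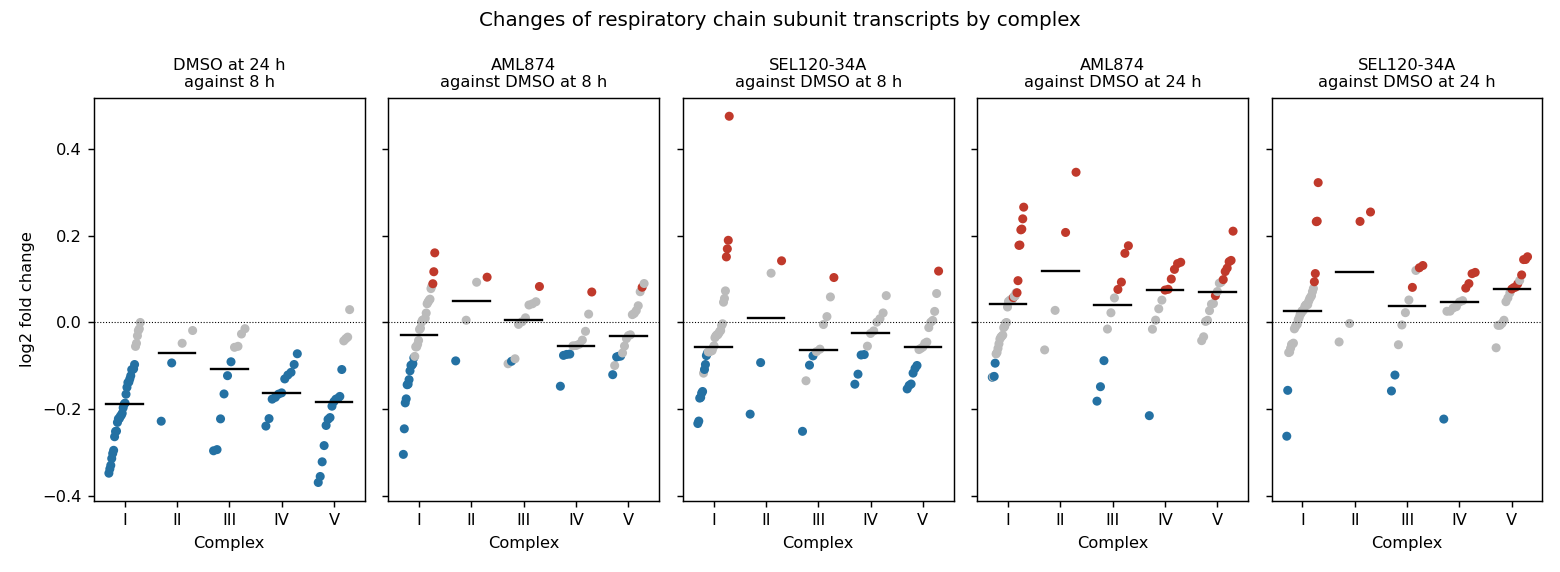
Log2 fold change of each of the 76 members with a mean of at least 5 CPM, by complex, in 5 comparisons, with red for higher and blue for lower at an adjusted p under 0.05, grey for neither, and a bar at the median of the complex. Complex IV is wholly below 0 in DMSO over time, and the medians with either compound at 24 h are above 0, while the balance at 8 h turns with library totals alone.

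After 24 h more members were higher than lower with either compound. With AML874, 29 of 82 members were higher and 7 lower than with DMSO, against 23.1% and 23.7% of all genes, and with SEL120-34A 23 were higher and 6 lower, against 19.1% and 18.6%. Medians were 0.05 and 0.04 on the log2 scale, beside 0.00 and 0.01 for all genes. Both comparisons use the DMSO libraries at 24 h, in which the members were lowest, and summed levels were 9261, 9424 and 9407 CPM with AML874 and 9419, 9081 and 9508 with SEL120-34A against 9175, 9073 and 8943 with DMSO. The ranges of SEL120-34A and DMSO overlapped. On the TPM scale the sums were 22125 ± 42.1 with DMSO, 21896 ± 313 with AML874 and 22313 ± 490 with SEL120-34A (SD, n = 3), so the sum with AML874 was not higher there. For complex I the 2 scales were opposed. Its sums with AML874 lay above DMSO by CPM, at 2472 to 2523 against 2393 to 2445. By TPM they lay below, at 6709 to 6898 against 6971 to 7042. In the other complexes the TPM ranges of AML874 and DMSO overlapped. Without DMSO at 24 h library 2 the 23 became 15, and without AML874 at 24 h library 1 the 7 became 4.

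By complex, 10 of 38 members of complex I, 2 of 4 of complex II, 4 of 10 of complex III, 6 of 11 of complex IV and 7 of 19 of complex V were higher with AML874, and 6, 2, 3, 4 and 8 with SEL120-34A. Of the 4 peripheral stalk subunits of ATP synthase, which hold the head still, 3 rose with either compound. ATP5PD among them was at 65.7, 62.1 and 63.1 CPM with DMSO, 73.0, 74.8 and 73.1 with AML874 and 70.3, 70.3 and 71.4 with SEL120-34A, log2 changes of 0.21 ± 0.05 and 0.15 ± 0.05 without overlap. ATP5F1A rose from 746, 744 and 722 CPM to 772, 811 and 785 with AML874 and 807, 771 and 808 with SEL120-34A, by 0.10 ± 0.02 and 0.11 ± 0.02 on the log2 scale. NDUFA2, an accessory subunit of the matrix arm, rose from 44.8, 43.3 and 41.7 CPM to 47.8, 49.3 and 49.9 and to 50.8, 48.3 and 53.4, by 0.18 ± 0.04 and 0.23 ± 0.04.

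In complex III 4 of 10 members were higher and 3 lower with AML874, and 3 higher and 2 lower with SEL120-34A, while in complex IV 1 member, COX8A, was lower with either compound. UQCRB, a small subunit near the quinone site, was at 151, 151 and 156 CPM with DMSO, 173 in each of the 3 AML874 libraries and 163, 170 and 170 with SEL120-34A. Its log2 changes were 0.18 ± 0.03 and 0.13 ± 0.03, with no overlap by CPM. On the TPM scale UQCRB was at 291.5 to 314.6 with DMSO, 313.7 to 316.5 with AML874 and 300.0 to 314.6 with SEL120-34A. Both treated ranges overlapped that of DMSO. COX6B1, which faces the intermembrane space, went from 125, 121 and 116 CPM to 132, 132 and 134 with AML874, by 0.14 ± 0.03. COX7A2L, known for joining complexes III and IV into supercomplexes, was at 95.4, 92.9 and 91.0 CPM with DMSO, 104, 102 and 100 with AML874 and 96.2, 94.0 and 98.8 with SEL120-34A. It rose with AML874 by 0.14 ± 0.03, while the change with SEL120-34A was 0.05 and its libraries overlapped DMSO.

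The 7 members lower with AML874 at 24 h were UQCR11, UQCRH, UQCRHL, COX8A, NDUFA12, NDUFB9 and NDUFC1, and the 6 lower with SEL120-34A were NDUFA3, NDUFB8, NDUFV2, UQCRH, UQCRHL and COX8A. NDUFV2 had a log2 change of -0.65 with STAR counts and -0.07 with RSEM counts, not called there (edgeR adjusted p = 0.053). NDUFB8 had -0.16 with STAR counts and -0.18 with RSEM counts. UQCR11 of complex III was at 15.0, 15.5 and 14.8 CPM with DMSO and 12.2, 13.7 and 14.1 with AML874, a log2 change of -0.18 ± 0.06. For UQCR11 RSEM counts, 4.62 times as high, gave 0.10, the opposite direction, and without AML874 at 24 h library 1 the change was -0.12 and not called. UQCRHL had log2 changes of -0.15 and -0.16, which were not called when single DMSO libraries were left out. NDUFA12 fell with AML874 by 0.13 ± 0.04. Myeloid markers moved too, with 6 of 7 lower with AML874 and 5 of 7 with SEL120-34A, as did HIF targets, with 10 and 8 of 26 lower. Their part in the changes of the members was not tested, and in bulk RNA fewer cells of a kind and less RNA per cell cannot be told apart.

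The mitochondrially encoded subunits are the partners of these proteins in complexes I, III, IV and V. Of 13, 12 rose with AML874 at 24 h and 4 with SEL120-34A, with 0 lower in either. Their share of gene counts was 5.51% ± 0.03 with DMSO, 7.16% ± 0.22 with AML874 and 5.95% ± 0.24 with SEL120-34A (SD, n = 3). MT-CO1, the catalytic subunit of cytochrome oxidase, had the smallest p among them with AML874, at a log2 change of 0.44. Nuclear-encoded members of complex IV had a median of 0.07 in the same comparison. Assembly factors of complex I rose in 7 of 16 with either compound and fell in 3 with AML874 and 2 with SEL120-34A. Of 13 biogenesis regulators 8 fell and 1 rose with AML874, among them GABPB1 at -0.39 ± 0.04 and NRF1 at -0.34 ± 0.04.

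The 1 pair of compounds was compared directly at 8 h and at 24 h, with p-values adjusted over all genes within each time. At 8 h 13 members were higher with AML874 than with SEL120-34A and 9 lower, against 16.0% and 15.2% of all genes, or 10 and 16 with library totals alone. At 24 h 8 were higher and 3 lower, against 8.0% and 11.6%. Of the 9, 3 remained among members that RSEM counts alike, and RSEM counts gave 5. Without SEL120-34A at 8 h library 1 or 3 the 9 became 4 or 5, and without the 4 libraries named above it became 14. At 24 h the 8 became 5 without AML874 library 3 or SEL120-34A library 2, and the 3 ranged from 1 to 7 over left-out libraries, with 1 without AML874 at 24 h library 1 or SEL120-34A at 24 h library 1 or 3, 5 without AML874 at 8 h library 3 and 7 without SEL120-34A at 24 h library 2. Without the 4 libraries named above the 3 became 5.

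A few members separated the compounds clearly. UQCRC2, a core protein of complex III (ENSG00000140740.11, chr16:21952660-21983660), was at 219, 221 and 216 CPM with DMSO at 8 h, 227, 222 and 226 with AML874 and 185, 187 and 179 with SEL120-34A. Only the SEL120-34A libraries were low, and the difference between compounds was 0.29 ± 0.02 on the log2 scale (edgeR adjusted p = 1.59e-11). At 24 h AML874 had 228, 234 and 224 CPM and SEL120-34A 204, 207 and 210, still apart by 0.14 ± 0.02. NDUFA10, an accessory subunit of complex I (ENSG00000130414.12, chr2:239892450-240025402), was at 96.6, 97.3 and 93.8 CPM with DMSO at 8 h, 98.6, 99.6 and 100 with AML874 and 83.0, 79.9 and 82.8 with SEL120-34A, a difference between compounds of 0.28 ± 0.03. At 24 h the difference was 0.15 ± 0.03, with AML874 at 108, 109 and 112 CPM above both DMSO and SEL120-34A. NDUFB5, of the membrane arm, differed by 0.25 ± 0.03 and 0.19 ± 0.03 at the 2 times in the same direction.

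NDUFA3 (ENSG00000170906.16, chr19:54102728-54109257), an accessory subunit of complex I, was the member with the largest difference at 24 h among those above 5 CPM. It was at 37.9, 37.7 and 36.0 CPM with DMSO, 40.3, 36.7 and 38.3 with AML874 and 31.0, 29.5 and 32.5 with SEL120-34A. The SEL120-34A libraries were the lowest of the 9, and the compounds differed by 0.31 ± 0.04 on the log2 scale (edgeR adjusted p = 1.26e-07), after 0.22 ± 0.04 at 8 h. NDUFC2, a membrane-arm subunit, was at 11.3, 11.4 and 11.4 CPM with DMSO at 8 h, 12.2, 12.4 and 11.3 with AML874 and 16.1, 15.0 and 16.3 with SEL120-34A. The rise of 0.48 ± 0.05 with SEL120-34A was 0.10 with RSEM counts (edgeR adjusted p = 0.0065), 5.68 times as high for this gene. UQCR11 at 24 h and NDUFA11 at 8 h were lower with AML874 than with SEL120-34A by STAR counts, at -0.30 and -0.19, and differed by 0.02 and -0.02 with RSEM counts, neither of which was called. ATP5MC1 was higher with AML874 at 8 h by 0.15 ± 0.05, a call that for ATP5MC1 was lost without AML874 at 8 h library 3 (0.13) or SEL120-34A at 8 h library 2 (0.09). Some members did not differ between the compounds past the threshold, with 95% intervals of the log2 difference, for NDUFV1, of -0.04 to 0.06 at 8 h and -0.02 to 0.08 at 24 h, for SDHC -0.09 to 0.01 and -0.08 to 0.03, and for COX8A -0.08 to 0.07 and -0.07 to 0.09. The intervals were wider for SDHA, -0.15 to 0.11 and -0.03 to 0.22, and for NDUFA4L2, -0.16 to 0.31 and -0.29 to 0.21.

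**Figure D5:**
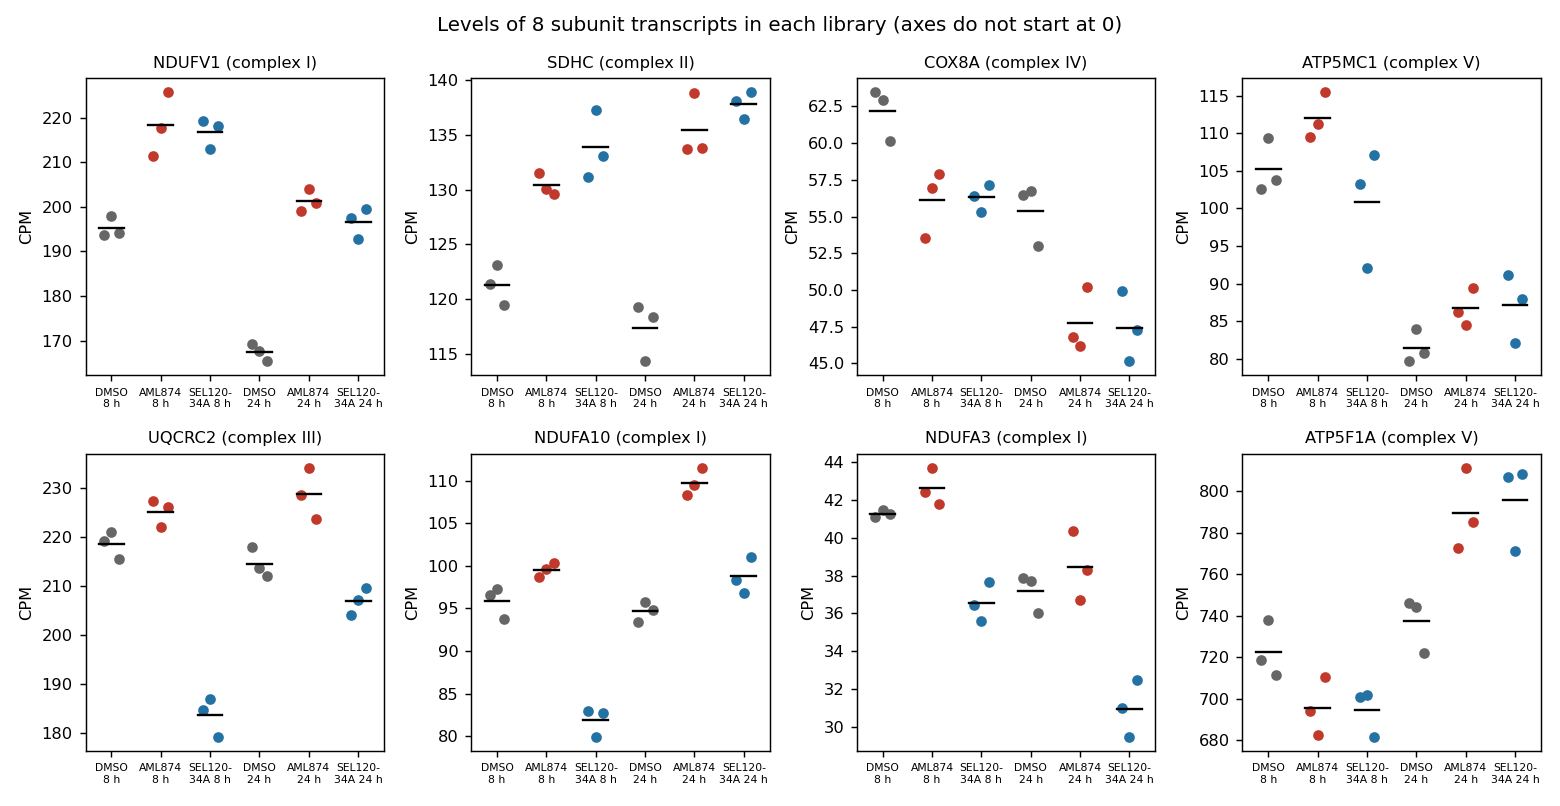
CPM of 8 members in each of the 18 libraries, with 1 point a library and a bar at the group mean, grey for DMSO, red for AML874 and blue for SEL120-34A, on axes that do not start at 0. NDUFV1 and SDHC are higher and COX8A lower with both compounds at each time, and at 8 h UQCRC2, NDUFA10 and NDUFA3 are lower with SEL120-34A than with DMSO or AML874.

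The effect at 24 h was then set against the effect at 8 h within each compound. For AML874 the late effect was higher for 25 of 82 members and lower for 2, against 11.1% and 12.5% of all genes, and for SEL120-34A for 23 and 2, against 14.2% and 13.0%. With library totals alone the counts were 12 and 3 for AML874 and 9 and 8 for SEL120-34A. Medians were 0.06 and 0.07 on the log2 scale. Both terms contain the change of the DMSO libraries between the times, in which 60 members fell. Without SEL120-34A at 24 h library 2 the 23 became 35, and without the 4 libraries named above it became 39. The 2 lower with AML874 became 1 or 0 without any 1 of most libraries, and the 2 with SEL120-34A became 1 without DMSO at 8 h library 3, SEL120-34A at 8 h library 3, DMSO at 24 h library 2 or 3 or SEL120-34A at 24 h library 2.

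Within each compound the members still fell between 8 h and 24 h. With AML874 42 fell and 9 rose, against 27.0% and 25.3% of all genes, and with SEL120-34A 43 fell and 9 rose, against 26.2% and 24.5%. Medians were -0.10 in both, beside -0.17 with DMSO. Complex IV, in which 11 of 11 fell with DMSO, had 4 of 11 lower with AML874 and 6 of 11 with SEL120-34A. The 9 that rose with AML874 became 14 without DMSO at 8 h library 1 or 3 or SEL120-34A at 8 h library 2 or 3, and the 9 with SEL120-34A became 14 without DMSO at 8 h library 3. ATP5F1A was among those whose late effect was higher in both compounds, by 0.15 ± 0.04 and 0.17 ± 0.04, with 694, 682 and 710 CPM at 8 h and 772, 811 and 785 CPM at 24 h with AML874.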

How the data were processed

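Polyadenylated RNA of 18 libraries in 6 groups was measured, per the labels. The authors aligned reads with STAR 2.7.1a and RSEM 1.3.2 to GRCh38, per the submitters' processing notes; the annotation release is not given in the sources used here. The deposited STAR files hold read counts per gene (reverse-strand column used), and the deposited RSEM files hold expected counts, rounded here to whole numbers, and TPM. Summary lines, 21.94 to 25.52% of reads, were left out. Positions are GENCODE 29 (GRCh38), which held 58502 of 60609 identifiers.

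Genes were filtered with filterByExpr, which removed 0.016% of counts, scaled with TMM and fitted in 1 model of 6 groups with the robust quasi-likelihood test of edgeR 4.0.16 (R 4.3.3, 12 residual degrees of freedom). P-values were adjusted by Benjamini-Hochberg over 20920 genes and called under 0.05. The fit was tested on simulated data. Members and lists were chosen with earlier results of these data known.

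Genes were named by rule: for each compound against DMSO, the 4 largest called rises and falls without overlap between libraries and with at least 5 CPM; elsewhere 2 each way; 17 catalytic or isoform members in every comparison; and up to 3 genes per other list by p. ATP5F1C, ATP5PD, UQCRB, UQCRH, COX6B1 and further comparisons of members the rule named once were added after their values were seen.

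Alternatives were median-of-ratios factors, library totals alone, other filters, a replicate block, only the groups compared, unstranded counts, RSEM counts, DESeq2 1.42.0, the HIF target mean as a covariate and left-out libraries; some were added after seeing the data, namely members counted alike by RSEM, changes within a compound and the block with only the groups compared. With group means removed, same-numbered libraries of AML874 and DMSO at 24 h correlated at 0.37, 0.17 and 0.24. The highest correlations with another number were -0.14, -0.03 and 0.22. In no other comparison with DMSO were all 3 above 0.1. These values are weak, and no label says that a number marks a shared culture, so pairing is not established. Tables and figures used Python 3.11.15, pandas 2.3.3 and matplotlib 3.10.9.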

Additional observations from a re-analysis of the deposited data

Results flagged for a closer look

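For these members the effect of a compound at 24 h differed from its effect at 8 h by a test of the difference itself (edgeR quasi-likelihood, adjusted p under 0.05); values are late minus early effects on the log2 scale. With AML874 the late effect was higher for SDHA (0.25, or 0.18 with RSEM counts), NDUFA11 (0.24, or 0.12 with RSEM counts), ATP5F1A (0.15), NDUFA4 (0.15), ATP5MC2 (0.14), COX4I1 (0.12) and NDUFV1 (0.11), and lower for NDUFA4L2 (-0.59) and NDUFS8 (-0.12). With SEL120-34A it was higher for NDUFA10 (0.29), ATP5PO (0.26, or 0.14 with RSEM counts), ATP5MC2 (0.18), SDHB (0.17), ATP5F1A (0.17), ATP5F1B (0.14), UQCRC1 (0.11) and COX4I1 (0.11), and lower for NDUFA4L2 (-0.48) and ATP5MF-PTCD1 (-2.69, but 0.089 with RSEM counts, not called). The 2 sets share the DMSO libraries. All these values are with TMM scaling. With library totals alone fewer members were called higher in either late effect, so the smaller values here do not stand apart from the scaling. ATP5MF-PTCD1 had 174 counts over all libraries and NDUFA4L2 stood at 2.37 TPM.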

How the results depend on the processing

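Library totals alone gave 20 higher and 9 lower for AML874 against DMSO at 8 h and 23 and 10 for SEL120-34A, 16 lower between the compounds at 8 h, 2 higher for DMSO over time, 12 higher for the late effect of AML874, and 9 higher and 8 lower for that of SEL120-34A. RSEM counts gave 13 higher for AML874 at 8 h, 5 lower between the compounds at 8 h and 1 at 24 h, and 1 lower for the late effect of SEL120-34A. With HIF targets as a covariate, 5 were higher for AML874 and 38 lower for SEL120-34A at 8 h, 11 lower for AML874 at 24 h, 15 and 8 lower between the compounds at 8 h and 24 h, and 4 lower for the late effect of SEL120-34A. Without the 4 libraries high on the shared axis, 5 were higher for AML874 at 8 h, 14 and 5 lower between the compounds, 1 lower in either late effect and 39 higher for SEL120-34A. Among members counted alike, 5 were higher for SEL120-34A at 8 h, 3 lower for it at 24 h, 3 lower between the compounds at 8 h, 0 higher for DMSO over time (1 in all, NDUFV2) and 1 lower for the late effect of SEL120-34A. No filter gave 1 and 4 lower for the late effects of AML874 and SEL120-34A, unstranded counts 1 and 1, and a filter of 1 CPM gave 1 lower for AML874 and 18 and 16 higher over time within AML874 and SEL120-34A. The causes were not tested.

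The replicate block over all libraries gave 27 higher and 7 lower for AML874 at 24 h, where same-numbered libraries correlated weakly. It gave 1 lower for the late effect of AML874. With only the groups compared, the block gave 34 and 9 for AML874 at 24 h and 16 lower for SEL120-34A at 8 h.

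With single libraries left out, higher and lower members ranged from 4 to 8 and 19 to 30 for AML874 at 8 h, 8 to 12 and 22 to 38 for SEL120-34A at 8 h, 22 to 30 and 4 to 9 for AML874 at 24 h, and 15 to 32 and 4 to 8 for SEL120-34A at 24 h. Between the compounds they ranged from 9 to 14 and 4 to 13 at 8 h and 5 to 9 and 1 to 7 at 24 h. Over time they ranged from 0 to 1 and 52 to 63 in DMSO, 9 to 14 and 36 to 44 in AML874, and 8 to 14 and 36 to 44 in SEL120-34A. Late effects ranged from 18 to 31 and 0 to 3 for AML874, and 17 to 35 and 1 to 3 for SEL120-34A.

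Of 95 named changes, 51 passed the threshold under every alternative, 44 missed it in at least 1 and 4 reversed, all with RSEM counts: NDUFC2 with AML874 at 24 h (-0.038), UQCR11 with AML874 at 24 h (0.10) and against SEL120-34A (0.021), and ATP5MF-PTCD1 for the late effect of SEL120-34A (0.089). Low counts limit ATP5MF-PTCD1, NDUFA4L2 and NDUFV2.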
